A study of Mus musculus with 40 samples.

Results

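The thrombospondins are secreted, calcium-binding glycoproteins encoded in the mouse by Thbs1, Thbs2, Thbs3, Thbs4 and Comp, the last also known as thrombospondin 5. All 5 genes of the family were taken as members, each with a row in the deposited expression table. The rule uses family membership and no measured value, but the family was picked for description with earlier results of these data known. They make up 5 of the 11450 genes of that table.

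RNA was sequenced from hearts of adult C57BL/6 mice after permanent ligation of the coronary artery that supplies the front wall of the left ventricle (the LAD). From each heart the scar, here called the injured region, and myocardium remote from it, called the uninjured region, were taken as separate libraries. Each of days 3, 7, 14, 21 and 42 after ligation is represented by 4 mice and therefore by 4 injured and 4 uninjured libraries, which gives 20 mice and 40 libraries. All the mice carried the ligation, so the uninjured region is remote tissue of an infarcted heart and not tissue of an unoperated animal, and no sham-operated group enters any comparison. Mice are named by day and label. Mice of different days are different animals even where their labels are alike, and the day 42 mice alone have labels starting with B, so day 42 and that cohort cannot be told apart.

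Thrombospondins are matricellular proteins: they sit in the extracellular matrix and tune cell adhesion, growth factor activity and matrix assembly, without being a main structural component of the matrix. Subgroup A, Thbs1 and Thbs2, forms trimers and carries the type 1 repeats through which the proteins bind the scavenger receptor CD36, and, in Thbs1, the sequence that activates latent TGF-beta. Subgroup B, Thbs3, Thbs4 and Comp, forms pentamers without type 1 repeats. Comp is known from cartilage and tendon, where it binds collagens and helps to organise fibrils, and Thbs4 is known from tendon, muscle and stressed myocardium. In the heart Thbs1 and Thbs2 are known as genes induced after injury, and Thbs1 is also stored in platelets.

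Expression was given as RPKM, a read count divided by gene length and library size, which corrects for gene length and lets levels be compared between genes. Differences between groups are on the log2(RPKM + 1) scale, which understates changes of genes near or under 1 RPKM. A difference was called when limma's Benjamini-Hochberg adjusted p over all 11390 genes tested was under 0.05. The 5 genes all passed the filter on low values. Whole reads could be recovered from the RPKM for all 11450 genes, with totals between 12123945 and 33596397 reads a library. Thbs1 rested on 415 to 101057 reads, Thbs2 on 913 to 40508, Thbs3 on 147 to 2622, Thbs4 on 158 to 7247 and Comp on 32 to 69140.

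The recovered reads showed that the deposited values were not scaled to the total of the genes in the table: per unit of the library size behind the RPKM, uninjured libraries held a median of 1.64 times the reads of a day 3 injured library and injured libraries 0.97 times. Rescaling every library to its total raised the median region difference of all genes from between 0.03 and 0.06 to between 0.59 and 0.68 log2 units, and the share of called genes that were higher in the injured region from between 51.1% and 53.0% to between 76.8% and 81.1%. Directions below are therefore relative to the deposited scaling, under which the median gene differed little between regions. None of the members' called differences changed sign under either scaling. The cardiomyocyte markers Myh6, Tnnt2, Tnni3, Actc1, Ryr2 and Mb were all lower in the injured region on every day, with a summed level of 1198 to 5371 RPKM there against 15379 to 25235 in the uninjured region. Xist, expressed from the inactive X chromosome, exceeded 1 RPKM in both regions of 1, 2, 3, 2 and 2 of the 4 mice at days 3, 7, 14, 21 and 42.

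On the mouse assembly mm10 with the GENCODE M21 annotation, Thbs1 lies on chromosome 2 from 118111876 to 118127133 on the plus strand and Thbs2 on chromosome 17 from 14665500 to 14694235 on the minus strand. Thbs3 lies on chromosome 3 from 89215180 to 89226837, plus strand, Thbs4 on chromosome 13 from 92751590 to 92794818, minus strand, and Comp on chromosome 8 from 70373558 to 70382066, plus strand. RefSeq promoter windows on GRCm38.p6 matched 3 of the 5 genes. The 250 bases upstream of the start are shown for these, while the rise between days 3 and 7 in the scar was common to all 5 members. They are Thbs2 at chr17:14694263-14694512 on the minus strand, Thbs3 at chr3:89214930-89215179 on the plus strand and Thbs4 at chr13:92794819-92795068 on the minus strand. Each sequence is read in the direction of the gene, and capitals mark matches to the motifs named after them.
Thbs2: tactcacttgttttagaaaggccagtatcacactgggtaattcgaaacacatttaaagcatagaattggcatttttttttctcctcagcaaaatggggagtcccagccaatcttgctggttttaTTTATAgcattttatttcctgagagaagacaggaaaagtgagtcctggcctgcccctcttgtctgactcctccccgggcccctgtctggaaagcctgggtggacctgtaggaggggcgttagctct
Thbs3: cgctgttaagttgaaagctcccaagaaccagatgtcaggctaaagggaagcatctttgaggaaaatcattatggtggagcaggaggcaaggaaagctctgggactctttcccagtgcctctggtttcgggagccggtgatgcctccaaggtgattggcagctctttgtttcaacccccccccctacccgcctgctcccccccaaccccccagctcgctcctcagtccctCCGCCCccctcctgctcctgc
Thbs4: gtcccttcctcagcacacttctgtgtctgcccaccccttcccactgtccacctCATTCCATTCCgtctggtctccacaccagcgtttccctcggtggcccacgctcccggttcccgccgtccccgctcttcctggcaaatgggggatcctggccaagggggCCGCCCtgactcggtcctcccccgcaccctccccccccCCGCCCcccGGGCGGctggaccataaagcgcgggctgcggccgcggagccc
Motifs were searched on both strands, and each share below is that of all 32851 windows of this length with at least 1 match on either strand. Thbs2 held the letters TATAAA, of the TATA box, on the opposite strand 126 to 121 bases before the start, where 12.4% of windows hold them. Thbs3 held 1 match to the box GGGCGG, 21 to 16 bases before the start on the opposite strand. Thbs4 held this box at 89 to 84, 51 to 46 and 42 to 37 bases before the start, and 32.7% of windows held it. Its upstream end held the TEAD letters, GGAATG, at positions 197 to 192 and 192 to 187, on the opposite strand and sharing 1 base, against 12.6% of windows. The AP-1 letters, TGANTCA, are found in 6.75% of windows and had no match in these 3. Nor had the SMAD palindrome GTCTAGAC, which 0.167% of windows hold. The windows differed in base composition: 46.8% of the Thbs2 bases, 58.8% of the Thbs3 bases and 70.8% of the Thbs4 bases were G or C, against a median of 52.4% over all windows. Thbs1 and Comp are named only.

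In the scar all 5 genes were higher than in remote myocardium from day 7 onward, and 3 of them already at day 3. Of the genes tested, 44.1% were called higher in the injured region at day 3, where Thbs1, Thbs2 and Thbs3 were called. At days 7, 14, 21 and 42, 5 of 5 members were called higher, against 43.6%, 42.4%, 43.1% and 40.5% of all genes. Between 4404 and 4665 of the 11390 genes tested were called lower on each day, which is the background for every count of genes called lower below. The injured library exceeded the uninjured library of the same heart in 20 of 20 mice for Thbs1, Thbs2, Thbs3 and Comp and in 19 of 20 for Thbs4. How many of all genes reach such counts was not computed. In bulk tissue, more cells of a type and more RNA per cell cannot be told apart.

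**Figure D1:**
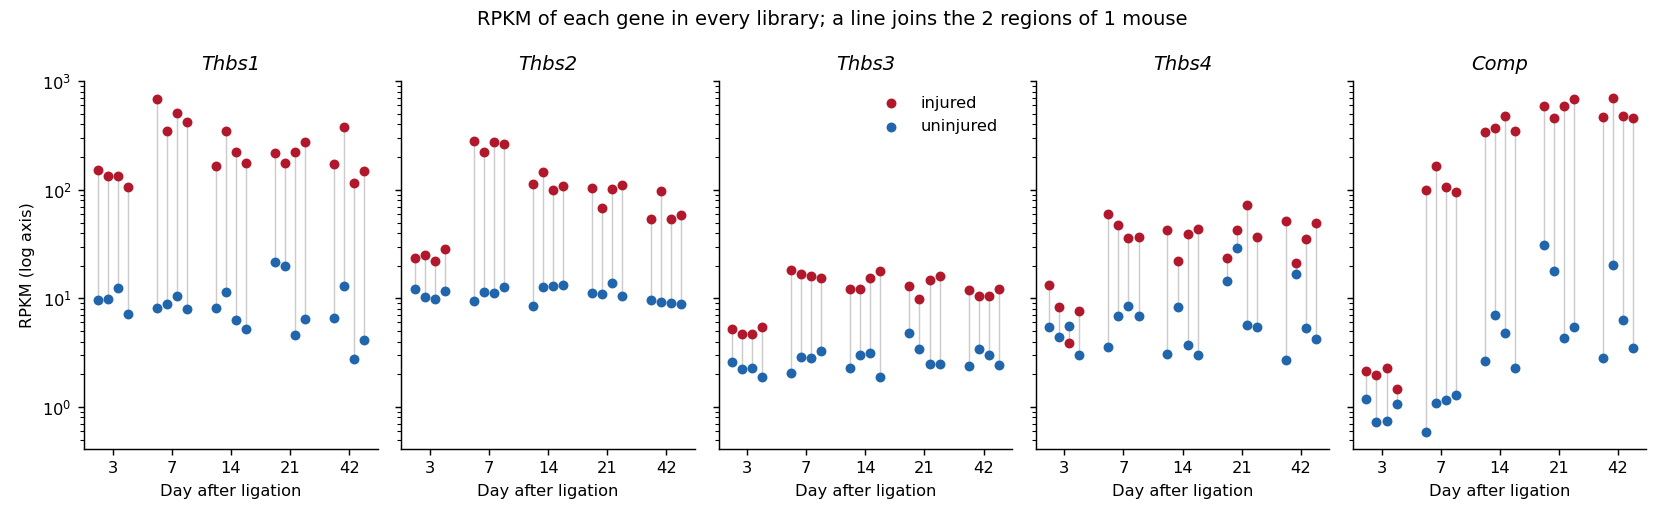
RPKM of Thbs1, Thbs2, Thbs3, Thbs4 and Comp (log vertical axis) in each of the 40 libraries by day after ligation. Red points are injured and blue points uninjured libraries, and each grey line joins the regions of 1 mouse. In the scar Comp lies between 1.45 and 2.28 RPKM on day 3 and between 462 and 689 on day 21, while Thbs1 and Thbs2 peak at day 7.

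Thbs1, the trimeric thrombospondin that binds CD36 and CD47 and activates latent TGF-beta, was the most abundant member in the scar at days 3 and 7. Its injured levels at day 3 were 153, 133, 135 and 106 RPKM in mice A4, A5, A7 and A8, and the uninjured levels in the same hearts were 9.72, 9.93, 12.4 and 7.11. At day 7 the scars of A7, A9, A10 and A12 held 510.3, 425, 690.0 and 347 RPKM against 10.6, 7.93, 8.18 and 8.98. Every injured value was thus far above every uninjured value, and the only scars of other days above the lowest day 7 scar were those of A4 at day 14 and B12 at day 42.

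Later scars held intermediate levels of Thbs1. Day 14 gave 348, 224, 178 and 164 RPKM in A4, A5, A6 and A11 against 11.4, 6.35, 5.22 and 8.23 in the uninjured region. Day 21 gave 225, 277, 218 and 176 in A3, A4, A10 and A11 against 4.63, 6.44, 21.7 and 19.8. Day 42 gave 175, 115, 149 and 379 in B1, B3, B9 and B12 against 6.54, 2.77, 4.12 and 13.0. The regions did not overlap on any day.

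Relative to the uninjured region, Thbs1 was higher by 3.63, 5.60, 4.69, 4.23 and 4.78 log2 units on the successive days, each with an SE of 0.28 (4 mice). The limma adjusted p was 3.7e-10 at day 3, the highest of these days. As a ratio of group means, this was 13.5-fold at day 3 and 55.2-fold at day 7. The size of the region difference changed over the days (adjusted p = 0.00331, limma's F test of the interaction). Within the scar, Thbs1 rose from day 3 to day 7 by 1.86 ± 0.30 log2 units (adjusted p = 3.07e-05, limma) and then decreased by 1.12 ± 0.30 to day 14 (adjusted p = 0.00506). The 4 scars at day 14 spanned 164 to 348 RPKM and those at day 21 176 to 277, so the level after the peak did not separate by day. Day 21 scars were above day 3 scars by 0.75 ± 0.30 (adjusted p = 0.0327, limma), a call that was lost under quantile normalization (adjusted p = 0.0555), in a joint model of both regions (0.0737) and without any of day 3 mice A5, A7 and A8 or day 21 mice A3, A4 and A10 (0.0511 to 0.0898).

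Platelets are a known store of thrombospondin 1, and 2 of 9 platelet and megakaryocyte markers, Pf4 and Ppbp, are in the table. Their summed level in the scar was 79.6 to 119 RPKM at day 3 and 11.3 to 40.7 at day 7, against 15.0 to 21.8 and 18.1 to 24.8 in the uninjured region. From day 14 onward both regions lay at or under 23.7 RPKM, with the scar at 5.85 to 8.97 at day 14. The sum of these 2 markers in the scar was highest at day 3 and the Thbs1 level at day 7. Most of the sum was Pf4, with 71.1 of 79.6 RPKM in the day 3 scar of A4. The other markers of the list are not in the table, so the sum does not measure platelet content. The part of platelets in the Thbs1 level was not tested.

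Thbs2, the other trimeric member, known as an inhibitor of vessel growth and a modulator of collagen fibril assembly, also peaked at day 7 in the scar. Its scar levels at day 3 were 23.3, 24.9, 22.1 and 28.7 RPKM in A4, A5, A7 and A8, against 12.2, 10.4, 9.77 and 11.6 in the uninjured region. At day 7 they were 274, 262, 284 and 222 in A7, A9, A10 and A12, against 11.3, 12.7, 9.39 and 11.4. The day 7 scars lay close together and above every other library of the study for this gene.

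Day 14 scars held 145, 98.8, 108 and 112 RPKM of Thbs2 in A4, A5, A6 and A11, and day 21 scars 101, 112, 103 and 67.7 in A3, A4, A10 and A11. Day 42 scars held 53.3, 53.9, 58.9 and 97.2 in B1, B3, B9 and B12, so B12 stood apart from the other scars of its day. The uninjured levels over days 14, 21 and 42 spanned 8.50 to 13.8 RPKM. All 20 uninjured libraries lay within that span, a narrower range in proportion than that of any other member.

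The region difference of Thbs2 was 1.10, 4.42, 3.19, 2.92 and 2.66 log2 units on the successive days (SE 0.14), and it was called on every day (limma adjusted p of 3.79e-07 or lower). It changed over the days (interaction adjusted p = 1.12e-09, limma). At day 3 the difference was larger when libraries were rescaled to their totals, 1.84. In the scar Thbs2 rose by 3.34 ± 0.18 from day 3 to day 7 (adjusted p = 3.79e-11, limma) and fell by 1.17 ± 0.18 to day 14 (adjusted p = 5.25e-05). Thbs1 and Thbs2 were the members that fell at this step, at which 21.2% of all genes were called lower.

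From day 21 to day 42 Thbs2 was the only member called in the scar, with a change of -0.56 ± 0.18 (limma adjusted p = 0.0299), where 13.6% of genes were called lower. This call was lost with only the libraries of those days (adjusted p = 0.0916) and without any of A3, A4, A10, B1, B3 and B9 (0.0700 to 0.0953). Without day 21 mice A10 and A11 and day 42 mouse B12, a set chosen after seeing the data, the change was -0.93 (adjusted p = 0.00104, limma). Thbs3 was then called as well at -0.38 (adjusted p = 0.0492). Without A11 alone Thbs3 was also called (-0.34, adjusted p = 0.0301).

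Thbs3, a pentameric member with broad low expression, had the smallest range. Its scar levels at day 3 were 5.18, 4.70, 4.68 and 5.44 RPKM in A4, A5, A7 and A8, against 2.59, 2.22, 2.27 and 1.90 in the uninjured region. At day 7 the scars held 16.1, 15.6, 18.2 and 16.6 in A7, A9, A10 and A12, against 2.83, 3.28, 2.08 and 2.88. Scar and uninjured values did not overlap on either day.

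The later scars stayed near the day 7 level. Those of A4, A5, A6 and A11 on day 14 held 12.2, 15.5, 17.7 and 12.3 RPKM. On day 21, A3, A4, A10 and A11 held 14.8, 16.0, 12.9 and 9.82, and on day 42, B1, B3, B9 and B12 held 11.9, 10.6, 12.3 and 10.4. The uninjured libraries of those days spanned 1.89 to 4.80 RPKM, with A10 at day 21 the highest. Thbs3 was higher in the scar by 0.89, 2.23, 2.11, 1.75 and 1.69 log2 units on the successive days (SE 0.16), all called, with the highest limma adjusted p, 4.53e-05, at day 3. Rescaling to library totals made the day 3 difference 1.48. The difference changed over the days (interaction adjusted p = 0.000347, limma).

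Between days 3 and 7 Thbs3 rose in the scar by 1.55 ± 0.12 log2 units (adjusted p = 4.58e-09, limma), and no later step was called. Its exons share 318 bases, 6.59% of their length, with Mtx1, a mitochondrial import gene on the opposite strand. Whether the counting used strand is not given in the sources used here, so reads in those bases cannot be told apart. Mtx1 itself was lower in the scar on every day, by between -0.34 and -0.73 ± 0.08 log2 units, the opposite direction to Thbs3. Thbs1 shares 208 exonic bases, 3.43% of its exons, with the noncoding gene Gm29233 on the opposite strand, which is not used here.

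Thbs4, a pentameric member known from tendon and stressed heart muscle, had the largest SE of the region difference among the 5 members. Day 3 scars held 13.3, 8.25, 3.87 and 7.65 RPKM in A4, A5, A7 and A8, against 5.48, 4.43, 5.54 and 2.99 in the uninjured region. In A7 the uninjured library was the higher of the pair, the only such case in the family, and the regions overlapped. The difference of 0.65 ± 0.56 log2 units was not called (limma adjusted p = 0.289). It was 1.31 and called when libraries were rescaled to their totals (adjusted p = 0.0405, limma).

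At day 7 the regions were apart. Scars of A7, A9, A10 and A12 held 36.2, 36.9, 60.1 and 47.0 RPKM of Thbs4 against 8.50, 6.93, 3.54 and 6.86. Scars at day 14 held 22.1, 39.5, 43.8 and 42.5 in A4, A5, A6 and A11 against 8.33, 3.70, 3.04 and 3.09. The lowest scar of day 14 and the highest uninjured library of that day came from the same heart, A4.

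Regions of Thbs4 came closer again in some hearts at days 21 and 42. Day 21 scars held 71.8, 36.9, 23.7 and 43.0 RPKM in A3, A4, A10 and A11, against 5.72, 5.50, 14.5 and 29.1, so that the uninjured library of A11 exceeded the scar of A10. Day 42 scars held 51.1, 35.6, 50.0 and 21.4 in B1, B3, B9 and B12, against 2.72, 5.39, 4.18 and 16.9. In B12 the scar was only 1.27 times the uninjured region, and in B1 18.8 times.

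From day 7 on, the region difference of Thbs4 was 2.65, 2.82, 1.80 and 2.49 log2 units on the successive days (SE 0.56), with limma adjusted p of 0.000361, 0.000196, 0.00712 and 0.000678. Leaving out day 21 mouse A3 took the day 21 difference to 1.25 and out of the called range (adjusted p = 0.0688, limma). Without A10, A11 and B12 it was 2.99. Thbs4 was the only member whose change of the region difference over the days was not called (interaction adjusted p = 0.102, limma), so 4 of 5 members were called, against 74.3% of all genes. That test was passed with no mouse block (0.0166), with the block as a random effect (0.0116) and without robust moderation (0.0470). It was also passed without A4 of day 14 (0.0498), without B12 (0.0249) and without A10, A11 and B12 (0.00697), a set chosen after seeing the data. In the scar Thbs4 rose by 2.38 ± 0.35 between days 3 and 7 (adjusted p = 1.31e-05, limma), and no later step was called.

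Comp, the pentameric cartilage and tendon member, had the widest range of the family and the latest maximum. At day 3 its scar levels were 2.16, 1.99, 2.28 and 1.45 RPKM in A4, A5, A7 and A8, against 1.18, 0.73, 0.74 and 1.07 in the uninjured region. These groups did not overlap and the scar was higher in 4 of 4 hearts, but the difference of 0.62 ± 0.37 log2 units was not called (limma adjusted p = 0.129). The SE is 1 value for all 5 days, from the spread of all the mice. The difference was called when the pseudocount was 0.1 in place of 1 (1.01, adjusted p = 0.0366) and when libraries were rescaled (1.07, adjusted p = 0.0160). Without day 21 mice A10 and A11 and day 42 mouse B12 it was called as well (0.62 ± 0.18, limma adjusted p = 0.00467). These mice were left out after seeing the data, in which their uninjured Comp was highest. The estimate stayed at 0.62 and only the SE fell, so this call adds no support of its own.

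By day 7 the scars of A7, A9, A10 and A12 held 105, 95.0, 99.5 and 167 RPKM of Comp against 1.17, 1.30, 0.59 and 1.09. Day 14 scars held 375, 474, 349.9 and 342 in A4, A5, A6 and A11 against 7.02, 4.82, 2.27 and 2.64. In both regions no library of day 14 was at or under the highest of day 7. The step was called in the scar. In the uninjured region it was 1.27 ± 0.54 log2 units and not called (limma adjusted p = 0.132). With only the libraries of those days it was called there too (1.27 ± 0.27, limma adjusted p = 0.0267). Whether the step differed between the regions was not tested.

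Comp at day 21 reached 592, 689, 595 and 462 RPKM in the scars of A3, A4, A10 and A11, and at day 42 469.6, 483, 458 and 705 in B1, B3, B9 and B12. The uninjured levels were 4.29, 5.48, 31.0 and 18.0 at day 21 and 2.81, 6.31, 3.52 and 20.2 at day 42. Scars of days 21 and 42 overlapped one another, and A10, A11 and B12 held the 3 highest uninjured levels.

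Comp was higher in the scar by 5.83, 6.30, 5.59 and 6.18 log2 units on days 7, 14, 21 and 42 (SE 0.37), all called (limma adjusted p of 1.27e-10 or lower). The ratio of group means was 113-fold at day 7 and 92.0-fold at day 14, against 2.12-fold at day 3. The change of the difference over the days was called (interaction adjusted p = 1.71e-07, limma). In the scar Comp rose by 5.28 ± 0.18 log2 units from day 3 to day 7 (adjusted p = 9.13e-14, limma) and by a further 1.74 ± 0.18 to day 14 (adjusted p = 1.67e-06). It was the only member to rise at the latter step, at which 21.9% of genes were called higher. The step from day 14 to day 21, 0.60 ± 0.18, had an unadjusted p of 0.00353 and an adjusted p of 0.229 in limma.

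**Figure D2:**
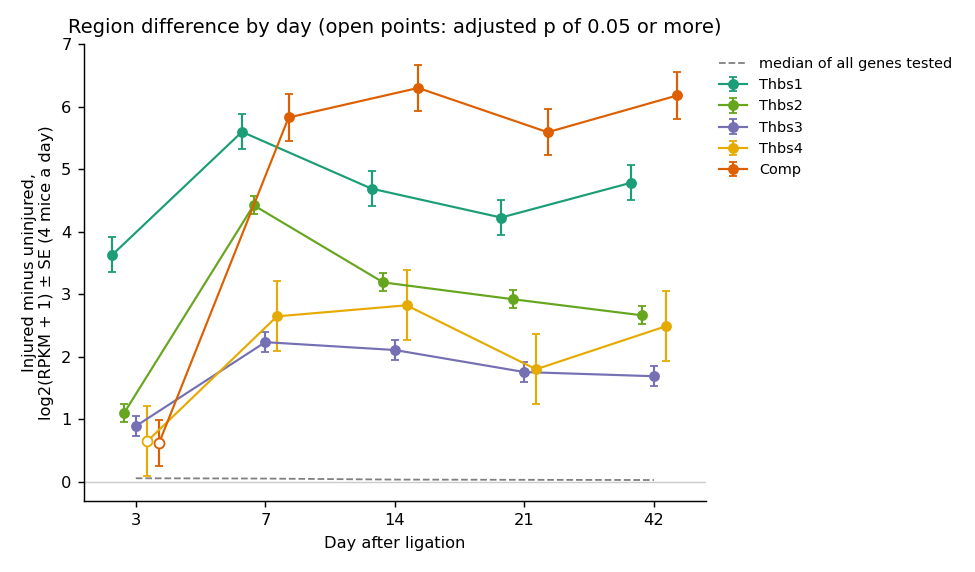
Injured minus uninjured difference of each gene on the log2(RPKM + 1) scale, with its SE, by day after ligation (4 mice a day). The SE of a gene is 1 value for all 5 days, from the spread of all the mice. Open points have an adjusted p of 0.05 or more, and the dashed line is the median of all genes tested. Thbs4 and Comp are the open points at day 3, and Comp is the highest line from day 7 onward.

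Set side by side, the steps in the scar differed between the members. From day 3 to day 7 all 5 members rose, where 27.7% of all genes were called higher. From day 7 to day 14 Thbs1 and Thbs2 fell, Comp rose, and Thbs3 (-0.20 ± 0.12, adjusted p = 0.185) and Thbs4 (-0.30 ± 0.35, adjusted p = 0.521) were not called in limma. From day 14 to day 21 limma called 0 members and 0 of all genes (0%), with 1496 genes at an unadjusted p under 0.05. Between days 3 and 21 all 5 were higher, where 32.5% of genes were called higher: Thbs1 by 0.75, Thbs2 by 1.89, Thbs3 by 1.24, Thbs4 by 2.27 and Comp by 7.62 log2 units. An F test over the 5 days called 5 of 5 members in the scar (limma adjusted p between 3.07e-16 and 0.000228), against 87.6% of genes.

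The make-up of the family's RPKM in the scar shifted from Thbs1 to Comp. Thbs1 made up 76.5% ± 4.0 (SD, n = 4), 52.1% ± 6.9, 28.7% ± 6.6, 23.2% ± 0.92 and 22.8% ± 6.2 of the summed RPKM of the 5 genes on the successive days. Comp made up 1.14% ± 0.16, 13.0% ± 5.4, 49.5% ± 5.9, 60.8% ± 1.5 and 63.0% ± 4.6 on the same days. Thbs2 had its largest share, 28.2% ± 2.8, at day 7, and Thbs4 had mean shares of 4.64% to 5.11%, with single scars from 1.76% to 7.15%. Comp was below Thbs1 in all 8 scars of days 3 and 7 and above it in all 12 later scars: the mean log2 ratio of Comp to Thbs1 was -6.07, -2.07, 0.81 and 1.39 on days 3, 7, 14 and 21, and between 0.89 and 2.07 in the day 42 scars. The summed level itself was 172, 932, 781, 961 and 850.0 RPKM on the successive days, with SDs of 19.8, 158, 113, 155 and 244.

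In the uninjured region no member held more than a mean of 39.4%, the share of Thbs2 at day 14. The sum was 28.6 ± 3.0, 30.4 ± 4.6 and 31.0 ± 8.1 RPKM on days 3, 7 and 14. It was 56.5 ± 29.7 at day 21 and 34.2 ± 19.2 at day 42, the days that hold A10, A11 and B12. Thbs2 made up 38.9% ± 6.3, 37.1% ± 3.2, 39.4% ± 9.6, 26.6% ± 15.7 and 31.8% ± 11.6 (SD, n = 4) on the successive days. Comp made up 3.29% ± 0.92, 3.35% ± 0.65, 12.9% ± 3.7, 22.8% ± 10.2 and 20.7% ± 9.1.

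**Figure D3:**
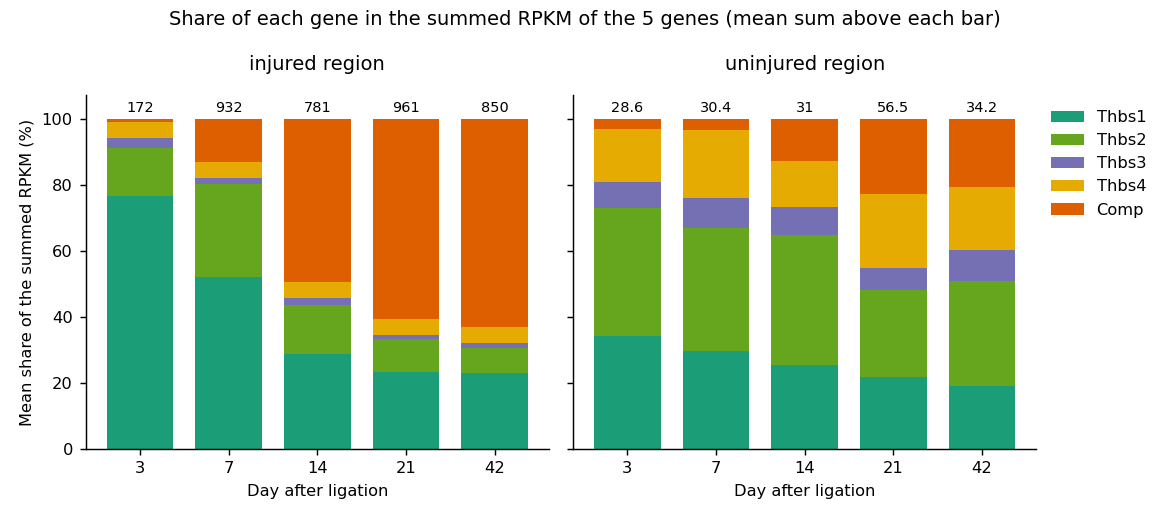
Mean share of each gene in the summed RPKM of the 5 genes (vertical axis, %), by day after ligation, in the injured (left) and uninjured (right) region, 4 libraries a bar. The number above a bar is the mean sum in RPKM. In the scar the Thbs1 share goes from 76.5% to 22.8% and the Comp share from 1.14% to 63.0%.

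Within the uninjured region the F test over the days called Comp alone among the members. The uninjured libraries spanned 0.73 to 1.18 RPKM on day 3, 0.59 to 1.30 on day 7, 2.27 to 7.02 on day 14, 4.29 to 31.0 on day 21 and 2.81 to 20.2 on day 42, so no library from day 14 on overlapped those of days 3 and 7. The F test over the 5 days called Comp (limma adjusted p = 0.00292) and none of the other members (0.133 to 0.439), where 47.2% of all genes were called. Thbs1 was called as well without A10, A11 and B12 (adjusted p = 0.0160, limma), and Thbs2 without A11 of day 14 (0.0104). Day 21 exceeded day 3 by 2.65 ± 0.54 log2 units for Comp (adjusted p = 0.00601, limma), where 5.72% of genes were called higher. Without A10, A11 and B12 this difference was 1.61 (adjusted p = 0.00945, limma). Leaving out these mice together was chosen after seeing the data.

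None of the single steps in the uninjured region was called for any member in limma. The steps called 25% of all genes from day 3 to day 7, 13% from day 7 to day 14, 0.00878% from day 14 to day 21 (1 gene) and 20.5% from day 21 to day 42. The Comp step from day 7 to day 14 had an unadjusted p of 0.0314 in limma. Also at an unadjusted limma p under 0.05 stood Comp (0.0271) and Thbs4 (0.0258) from day 14 to day 21 and Thbs2 from day 21 to day 42 (0.0176). The Comp step from day 7 to day 14 was called in limma with only the libraries of those days (adjusted p = 0.0267) and in the joint model of both regions (0.0326). It was also called without A10, A11 and B12 (0.00524), a set chosen after seeing the data. Without B12 alone, Thbs1 (-1.17, adjusted p = 0.0427, limma) and Thbs4 (-1.26, adjusted p = 0.0497) were called lower from day 21 to day 42.

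The uninjured libraries of day 21 mice A10 and A11 and day 42 mouse B12 stood high for several members at once. Comp was 31.0, 18.0 and 20.2 RPKM there and at most 7.02 in the other 17 uninjured libraries. Thbs1 was 21.7, 19.8 and 13.0 there and at most 12.4 elsewhere, and Thbs4 was 14.5, 29.1 and 16.9 there and at most 8.50 elsewhere. Thbs2 at 9.32 to 11.1 lay within the range of the other libraries. Thbs3 was 4.80, 3.41 and 3.44 there and at most 3.28 elsewhere. For Thbs1, Thbs3, Thbs4 and Comp these 3 libraries were thus the highest of the 20, by a narrow margin for Thbs1 and Thbs3, and for Thbs2 they were not.

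Some other transcripts were also higher in these libraries than in those of the other mice of the same day. Col1a1, the main fibrillar collagen chain of scar, was 33.8, 31.7 and 15.3 RPKM in A10, A11 and B12, against 9.64 and 8.98 in A3 and A4 of day 21 and 3.00 to 3.64 in the other day 42 mice. The summed level of the 6 fibroblast markers Pdgfra, Dcn, Lum, Col1a1, Postn and Tcf21 was 767, 678 and 600.4 RPKM there, against 610.1 and 649 in A3 and A4 and 448 to 590.3 in the other day 42 mice. The tendon and cartilage sum was 6.70, 8.83 and 7.53, against 4.65 and 5.24, and 3.96 to 5.11. Uninjured libraries of earlier days reached such levels too. Col1a1 was 60.0 RPKM in A7 of day 3 and 33.9 in A12 of day 7. The fibroblast sum was 704 RPKM in A4 of day 14, and the tendon and cartilage sum 6.92 in A5 of day 3. These readings therefore did not stand apart from all the other uninjured libraries, as Comp did. Xist was present in A10 and A11 and near 0 in A3 and A4, while at day 42 it was near 0 in B12. The part of any of these in the members' readings was not tested.

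**Figure D4:**
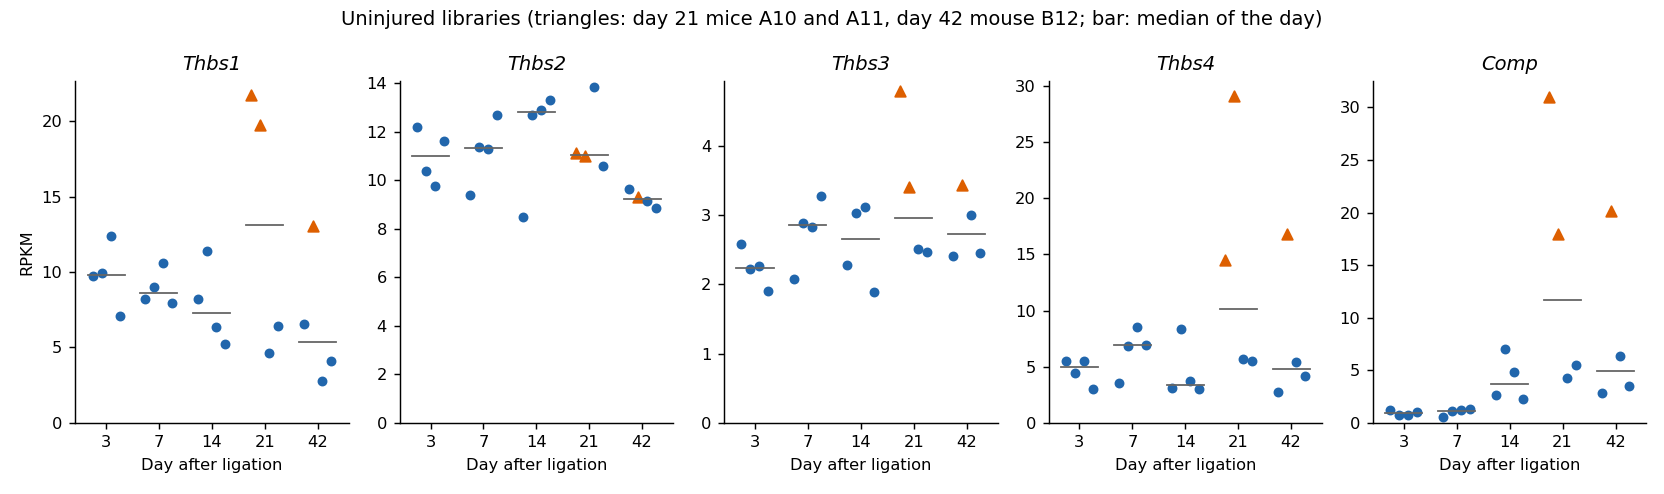
RPKM of each gene in the 20 uninjured libraries by day after ligation, each panel with its own linear axis from 0. Orange triangles are day 21 mice A10 and A11 and day 42 mouse B12, and grey bars are the median of the day. The triangles are the 3 highest points for Thbs1, Thbs3, Thbs4 and Comp and lie among the other points for Thbs2, while Comp is above its day 3 and day 7 range in every library from day 14 on.

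Cell type markers moved with the region as well. All 6 fibroblast markers were higher in the scar from day 7 onward, and their sum in the scar was 769.8 to 1019, 2605 to 3153, 2027 to 2143, 1527 to 2384 and 1798 to 1959 RPKM on the successive days, against 424 to 767 in the uninjured region. At day 3, 4 of the 6 were higher and 1 lower. The sum was highest at day 7, but Dcn, one of the 6, averaged 152, 555, 941, 984 and 1261 RPKM in the scars of the successive days and so had its highest mean at day 42. Of 10 tendon and cartilage markers, 6 are in the table (Scx, Sox9, Acan, Col2a1, Chad and Cilp2), and their sum in the scar was 6.79 to 8.84 RPKM on day 3, 41.3 to 56.1 on day 7 and 25.3 to 43.1 on day 42, against 3.61 to 8.83 in the uninjured region.

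Scx and Sox9 are transcription factors of tendon and cartilage cells. Scx spanned 2.59 to 3.33, 11.3 to 22.3, 6.39 to 11.3, 7.19 to 13.1 and 8.31 to 12.75 RPKM in the scars of the successive days. Sox9 spanned 3.64 to 4.89, 8.28 to 12.04, 8.57 to 14.4, 6.99 to 19.1 and 7.26 to 9.64. For both genes every scar from day 7 on was above every day 3 scar, as for Thbs2, Thbs3, Thbs4 and Comp. At day 3 Scx was 3.70 to 6.03 RPKM in the uninjured region, above every scar of that day. The 5 macrophage markers were called higher in the scar on every day for at least 4 of them, beside 40.5% to 44.1% of all genes. The 5 endothelial markers were all called lower from day 7 onward, while at day 3, 2 were higher and 1 lower. On each day 4404 to 4665 of the 11390 genes tested were called lower. Of the 6 smooth muscle and pericyte markers, 4 were higher and 2 lower at day 3, and 5 higher and 1 lower from day 7 onward. The part of cell composition in the members' differences was not tested.

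Genes whose scar levels followed each member most closely differed between the members. Likeness was the Pearson correlation of log2(RPKM + 1) over the 20 injured libraries, which share the course of days, and it is given as a description. Nearest to Thbs1 were Crtap (0.93), Acan (0.93), Srpx2 (0.93), Phldb2 (0.92) and Gcnt4 (0.91). Nearest to Thbs2 were Ddah1 (0.98), Acan (0.98), Col8a1 (0.97), Srpx2 (0.97) and Nbea (0.96). Acan, the large cartilage proteoglycan, and Srpx2 stood on both lists.

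Nearest to Thbs3 were Rgs4 (0.96), Nfatc4 (0.96), Mmp23 (0.96), Fgfrl1 (0.96) and Pdgfrl (0.95), and nearest to Thbs4 were Pde7a (0.91), the microfibril gene Mfap5 (0.91), Syt11 (0.89), Prkca (0.89) and Mfap4 (0.89). For Comp they were Serping1 (0.99), the complement C1 inhibitor, Itgbl1 (0.99), Cst3 (0.99), Pdlim2 (0.99) and Abi3bp (0.99). Itgbl1 averaged 3.09 RPKM in day 3 scars and 72.5, 124, 137 and 158 on the later days, and Abi3bp 1.90 and then 29.5, 74.3, 77.4 and 75.7. Among the members, the highest correlations were between Thbs3 and Thbs2 (0.89), Thbs4 and Thbs3 (0.87) and Thbs2 and Thbs1 (0.87), and the lowest between Comp and Thbs1 (0.34).

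The known receptors of thrombospondins were mostly higher in the scar, with CD36 among the exceptions. Of 17 receptor genes tested, 15, 14, 12, 12 and 13 were called higher and 2, 3, 3, 4 and 3 lower at days 3, 7, 14, 21 and 42, beside 40.5% to 44.1% of all genes called higher. The list's median difference was 1.15, 0.98, 0.99, 0.95 and 0.88 log2 units, against 0.06 to 0.03 for all genes. Lrp1, the endocytic receptor that clears thrombospondins, was 126 ± 22.6 RPKM in day 7 scars and 18.7 ± 4.0 in the uninjured region (log2 difference 2.69 ± 0.16, limma adjusted p = 9.37e-13). The heparan sulphate carrier Sdc1 differed by 2.61 ± 0.12 and the integrin subunit Itgb5 by 2.23 ± 0.09 on that day.

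Cd36, the scavenger receptor and fatty acid transporter that binds type 1 repeats, was lower in the scar on every day. At day 7 it was 69.0 ± 2.5 RPKM there against 686 ± 76.6 (-3.29 ± 0.15, limma adjusted p = 1.33e-14). Cacna2d1, a calcium channel subunit that binds thrombospondins, was lower as well, by -1.52 ± 0.10 on that day. The laminin receptor subunit Itga6 was higher at day 3 (0.49 ± 0.08) and lower at day 21 (-0.73 ± 0.08), but its differences from day 7 on turned positive when libraries were rescaled to their totals. Calr, also called lower at day 21 (-0.41), was called higher there under quantile normalization (0.53, limma adjusted p = 4.08e-05). After rescaling it was called higher as well (0.39, limma adjusted p = 0.00114).

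TGF-beta genes, listed because Thbs1 activates the latent form, were also mostly higher in the scar. Of 11 genes of ligands, latency-related proteins and receptors, 8, 10, 9, 10 and 11 were called higher and 2, 1, 0, 0 and 0 lower at the successive days, where 40.5% to 44.1% of all genes were called higher. The median differences were 1.27, 1.44, 1.85, 1.64 and 1.46, against 0.06 to 0.03 for all genes. Ltbp2, a microfibril-associated gene placed on the list by its family name, was 156 ± 15.0 RPKM in day 7 scars against 2.65 ± 0.70 (5.44 ± 0.35, limma adjusted p = 6.17e-11). Ltbp3 differed by 3.11 ± 0.16 and the ligand Tgfb3 by 3.21 ± 0.14. The smallest differences were those of the coreceptor Tgfbr3 (-0.96 ± 0.07 at day 7 and 0.41 ± 0.07 at day 42), of Ltbp1 (-0.58 ± 0.09 at day 3, which was 0.12 after rescaling) and of the receptor Tgfbr2 (1.07 ± 0.08 at day 7).

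Thrombospondin 4 is known to bind the stress sensor ATF6, and the counts for ATF6 and the endoplasmic reticulum chaperones depended on the scaling. Of 17 tested, 12, 11, 6, 5 and 4 were called higher and 3, 3, 3, 6 and 6 lower, against 44.1%, 43.6%, 42.4%, 43.1% and 40.5% of all genes called higher, with median differences of 0.42, 0.43, 0.11, -0.13 and -0.09. At days 21 and 42, 4665 and 4409 of the 11390 genes tested were called lower, so 6 of 17 was no larger a share than that of all genes. Under quantile normalization 15, 14, 12, 10 and 9 were higher and 2, 2, 2, 1 and 5 lower, with medians of 0.85, 0.66, 0.47, 0.39 and 0.23 and an all-gene median of at most 0.05. Pdia3 (1.25 ± 0.07) and Pdia4 (1.33 ± 0.08), disulphide isomerases, were higher at day 3, and Dnajc3, a cochaperone, by 0.29 ± 0.08. Atf6 (-1.26 ± 0.07) and Herpud1 (-2.09 ± 0.12), a degradation factor, were lower, both on every day. Hspa5, the main chaperone of the organelle, was lower by day 42 (-1.47 ± 0.13), but its day 3 value of -0.54 turned to 0.56 under quantile normalization and 0.25 after rescaling. After rescaling 14 of the 17 were called higher on each day up to day 21 and 12 at day 42, with list medians of 1.21 at day 3, 0.65 at day 21 and 0.61 at day 42 beside 0.68, 0.66 and 0.60 for all genes.

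Other thrombospondin partners were tested in the same fits. Of 5 ADAMTS proteases, a family with members known to cut thrombospondins, 3 were called higher on each day and 1, 0, 2, 1 and 1 lower, a share not far from the 40.5% to 44.1% of all genes called higher. After rescaling all 5 were called higher at days 3 and 7, with list medians of 1.16 and 1.05. The all-gene medians were then 0.68 and 0.59, and 78.9% and 76.8% of all called genes were higher. The 40.5% to 44.1% belongs to the deposited scaling and is not the background of the rescaled count. Adamts4 was highest at day 3 (3.40 ± 0.10), Adamts12 at day 7 (2.65 ± 0.12) and Adamts5 at day 42 (1.48 ± 0.10). Adamts1 was -0.67 ± 0.13 at day 14 and Adamts7 -0.46 ± 0.09, and both were 0.06 after rescaling. Of the 16 matrix partners on the list 12 are in the table, and 12 of 12 were called higher from day 7 on, with medians of 3.62, 2.83, 2.58 and 2.60, while at day 3 there were 5 higher and 1 lower. The share of all genes called higher was 44.1% at day 3 and 40.5% to 43.6% later.

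Among these partners fibronectin, Fn1, was 895 ± 129 RPKM in day 7 scars against 19.9 ± 6.2 (5.46 ± 0.23, limma adjusted p = 1.83e-14), and Col1a1 differed by 5.45 ± 0.31. Fibromodulin, Fmod, a collagen-binding proteoglycan, was 0.74 ± 0.27 RPKM in day 3 scars against 0.43 ± 0.17, not called (0.28 ± 0.22, limma adjusted p = 0.233), and 96.9 ± 22.3 in day 21 scars against 2.36 ± 1.45 (4.94 ± 0.22). The smallest mean differences were those of decorin, Dcn (-1.17 ± 0.14 at day 3 and 1.67 ± 0.14 at day 42), Col9a2 (1.91 ± 0.10 at day 7) and Matn2 (1.09 ± 0.11 at day 7).

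Of 24 other genes with type 1 repeats 16 were tested, and 10, 14, 13, 13 and 13 were called higher and 3, 2, 1, 2 and 2 lower, with medians of 0.31, 1.59, 1.34, 1.39 and 1.53, against 40.5% to 44.1% of all genes called higher. Under quantile normalization 6 were higher and 4 lower at day 3, with a median of 0.0071. The largest mean differences over the days were those of Wisp2, Wisp1 and Ctgf, matricellular proteins of the CCN family. Wisp2 was 181 ± 23.3 RPKM in day 7 scars against 9.57 ± 3.9 (4.17 ± 0.20, limma adjusted p = 6.21e-14), Wisp1 differed by 4.06 ± 0.23 and Ctgf by 3.26 ± 0.21. Adamtsl5 was -0.82 ± 0.09 at day 7, and Thsd1 was -0.46 ± 0.07 at day 21 and 0.08 after rescaling. Adamtsl5 was also negative at days 3, 14, 21 and 42 and positive on those days after rescaling. Spon2 was called at day 7 (0.54 ± 0.22, limma adjusted p = 0.0332) and on no other day.

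**Figure D5:**
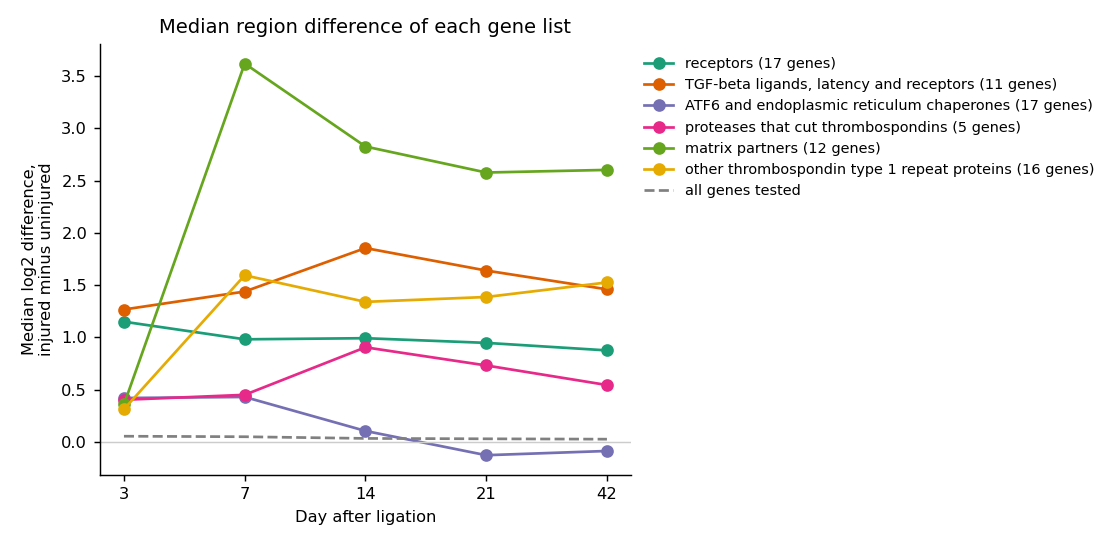
Median injured minus uninjured difference, on the log2(RPKM + 1) scale, of 6 gene lists related to the thrombospondins by day after ligation. The dashed line is the median of all genes tested, and the number of genes per list is in the legend. The matrix partners go from 0.36 at day 3 to 3.62 at day 7, while the ATF6 and chaperone list goes from 0.42 to -0.09 at day 42 under the deposited scaling shown (0.85 to 0.23 under quantile normalization and 1.21 to 0.61 after rescaling).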

How the data were processed

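RNA was sequenced from the injured and the uninjured region of 20 hearts. The authors deposited RPKM values for 11450 genes, and the submitters' processing notes name STAR, edgeR and the assembly mm10. For the annotation, the counting rules and the software versions, the entry is: not given in the sources used here.

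Values were analysed as log2(RPKM + 1) with limma 3.58.1 and statmod 1.5.0 in R 4.3.3, with trended and robust moderation, over the 11390 genes with at least 1 RPKM in at least 4 libraries. For region differences 1 model held all 40 libraries and a term for each mouse, the block, which left 15 residual degrees of freedom. Labels give both libraries of a heart the same mouse, and their deviations from the group means correlated by 0.15 to 0.54 in 20 of 20 mice. Days were compared within each region, over different mice. P-values were adjusted by Benjamini and Hochberg's method and called under 0.05. The tests were run on data drawn with known differences before use.

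Reads were recovered from the steps of the deposited RPKM: 100% of values came out whole to within 0.01 reads. The members and gene lists were chosen with earlier results of these data known. All members are named. From each list those with the 3 largest and 3 smallest mean differences are named, and for likeness the 5 nearest genes of each member. Calr is named in addition, for its dependence on the scaling. Alternatives are in the closing section.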

Additional observations from a re-analysis of the deposited data

Results flagged for a closer look

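In 6 of the 50 groups of 4 libraries, 1 library lay far from the other libraries of its group, where chance alone marks about 1 in 20 groups. Thbs2 was 97.2 RPKM in the day 42 scar of mouse B12, against 53.3 to 58.9 in the other scars of that day, and Comp in the same scar was 705 against 458 to 483. Comp was 167 RPKM in the day 7 scar of A12, against 95.0 to 105. In the uninjured region, Thbs2 was 8.50 RPKM in A11 at day 14, against 12.7 to 13.3, and 13.8 in A3 at day 21, against 10.6 to 11.1. Thbs4 was 8.33 RPKM in the uninjured region of A4 at day 14, against 3.04 to 3.70.

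The difference between regions was not the same on all days for 4 of the 5 genes, by limma's test of the interaction, which called 74.3% of all genes. The adjusted p was 1.12e-09 for Thbs2, 1.71e-07 for Comp, 0.000347 for Thbs3 and 0.00331 for Thbs1. For each of these genes, and also for Thbs4, which was not called, the difference in 4 of 4 hearts of day 7 was larger than the mean difference at day 3. The share of all genes for which this held was not counted, so it is given as a description.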

How the results depend on the processing

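Of 2510 recomputed results of single members, 2473 kept their side of the threshold, 16 lost a call and 21 gained one. Of the differences called before or after recomputing, 0 changed sign. Sign changes of differences called in neither fit were not counted, and F tests have no direction. For Thbs4, the test of whether the region difference changed over the days gave an adjusted p of 0.102 with the mouse as a fixed block, 0.0166 with no block and 0.0116 with a random replicate block, and no other region call depended on the block. Rescaled to library totals, 5 members differed between regions at day 3. From day 21 to day 42 in the scar, 0 members were called with only the libraries of those days. When 1 mouse was left out it was 0 to 2, beside 1899 to 3085 of all genes. It was 2 without day 21 mice A10 and A11 and day 42 mouse B12. Leaving out these 3 mice together was chosen after seeing the data. In the uninjured region 1 member was called from day 7 to day 14 with only the libraries of those days, 1 in the joint model and 1 without the 3 mice. From day 21 to day 42 it was 1 with only those libraries and 0 to 2 when 1 mouse was left out. Over the 5 days it was 1 to 2 when 1 mouse was left out, beside 4458 to 5937 of all genes, and 2 without the 3 mice.

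Over all genes, the calls from day 14 to day 21 in the scar numbered 0, with 5 after rescaling, 6 in the joint model, 0 to 25 when 1 mouse was left out and 8 without the 3 mice. In the uninjured region, leaving out 1 mouse gave 1705 to 3052 calls from day 3 to day 7, 613 to 1807 from day 7 to day 14, 0 to 1 from day 14 to day 21, 1530 to 3031 from day 21 to day 42 and 748 to 1503 from day 3 to day 21. Rescaling gave 747 for the last of these. With only the libraries compared the count was 0 from day 14 to day 21 and 1465 from day 21 to day 42, and without the 3 mice it was 0 from day 14 to day 21. The causes were not tested. A count model on the recovered reads was not run. Comp at or under 1.30 RPKM in the uninjured region at days 3 and 7 is the reading that depth limits most, at as few as 32 reads.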
